A study of Mus musculus with 6 samples.

Results

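Type 1 conventional dendritic cells (cDC1) were taken from single-cell transcriptomes of CD45+ leukocytes sorted from tumours of a breast cancer cell line of brain-metastatic origin. The line had been injected into the brain (BrM, 3 libraries) or into the mammary fat pad (MFP, 3 libraries) of female C57BL/6J mice aged 10-12 weeks. Cells were selected as CD45-positive, DAPI-negative and RedDot1-positive, so every library holds immune cells without further enrichment for dendritic cells. A cell was called cDC1 when it had at least 500 unique molecular identifiers (UMIs, 1 per captured RNA molecule), at least 200 genes, at most 10% mitochondrial UMIs, at least 2 UMIs of Xcr1 and Clec9a together, at least 1 UMI of Flt3, and 0 UMIs of Cd3e, Cd79a, Fscn1 and Siglech. The members were thus chosen by raw UMIs of Xcr1, Clec9a, Flt3 and the 4 excluded genes, which are described and not tested. This gate held 296 of 46891 cells passing the cell filters. Nothing in the labels ties the libraries to individual mice, so p-values here rest on the spread between libraries, which may be technical. The gene tests pool that spread over genes.

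Conventional dendritic cells present antigen to T cells and fall into 2 main branches. The cDC1 branch depends on the transcription factors Irf8 and Batf3 and senses dead cells through Clec9a. Through the receptor Xcr1 its cells are drawn to T cells and NK cells that make the Xcr1 ligand. The branch is known for loading antigen from other cells onto MHC class I (cross-presentation) and for making interleukin 12. The cDC2 branch carries Sirpa and Itgam and mainly presents to CD4 T cells on MHC class II. Type I interferon acting on cDC1 is known to be needed for effective cross-presentation of tumour antigen.

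The gate held 16, 141 and 95 cDC1 in BrM 1, BrM 2 and BrM 3, against 6, 3 and 35 in MFP 1, MFP 2 and MFP 3. Cells were set beside cDC2, gated by at least 2 UMIs of Cd209a, at least 1 of Flt3, none of Xcr1 or Clec9a and the same 4 excluded genes. That gate held 24, 47 and 30 cells in the BrM libraries, against 11, 7 and 44 in the MFP libraries, 163 in all. Both Xcr1 and Clec9a were detected in 115 of 141 cDC1 of BrM 2, 72 of 95 of BrM 3 and 26 of 35 of MFP 3. In T cells, gated by 2 or more UMIs of Cd3e, 0.131% to 0.950% of cells per library reached 2 UMIs of Xcr1 and Clec9a. Cells just inside the threshold, with 2 such UMIs, numbered 4, 18 and 19 in the BrM libraries, against 1, 1 and 6 in the MFP libraries, and cells just outside it, with 1 UMI, numbered 8, 27 and 25, against 3, 1 and 13. Pooled over libraries, Irf8 stood at 639 CPM (UMIs of a gene per 1000000 UMIs of the summed cells) just inside and 531 CPM just outside. Clec10a, a lectin of cDC2, stood at 21.9 CPM just inside and 187 CPM just outside.

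Library totals ranged over 50692794 to 70944735 UMIs, and the median cDC1 held 12874 to 23371 UMIs per library, against 6684 to 14865 in cDC2. The MFP 1 and MFP 2 libraries stood apart in having 6 and 3 cDC1, so gene tests rest on BrM 2, BrM 3 and MFP 3, the libraries with 20 or more cells of both types, and values of the others are given mainly where the sites are compared. BrM 1 stood with MFP 1 and MFP 2 in another respect: the 8 macrophage markers summed to 70.3 CPM in its T cells, 33.3 and 22.9 CPM in those of MFP 1 and MFP 2, and 2846, 1673 and 1687 CPM in those of BrM 2, BrM 3 and MFP 3. The 5 neutrophil markers split alike, at 0.443 to 1.05 CPM in T cells of BrM 1, MFP 1 and MFP 2 and 49.6 to 185 CPM in those of the other 3, so comparisons over all 6 libraries run across this split, and its part in them was not tested. Pairs of libraries shared 10 to 39 cell barcodes, of which 1 belonged to a cDC1, and none belonged to a cDC1 in both libraries. Markers of other cell types were counted in cDC1. The 8 macrophage markers summed to 108, 1543 and 1403 CPM in BrM 1, 2 and 3, against 63.9, 132 and 1554 CPM in MFP 1, 2 and 3, and the defining C1qa was at 0 in BrM 1, MFP 1 and MFP 2. The 7 T cell markers summed to 25.3 to 96.6 CPM in BrM, against 17.1 to 132 CPM in MFP, compared with 4127 to 5716 CPM in gated T cells. The 7 monocyte markers summed to 2010 to 2586 CPM in BrM, against 1813 to 2065 CPM in MFP, and 5 neutrophil markers summed to at most 30.9 CPM in any library. Summed NK cell markers ranged over 107 to 439 CPM in BrM, against 137 to 777 CPM in MFP, B cell markers over 85.5 to 113 CPM, against 112 to 198 CPM, and microglia markers over 186 to 305 CPM, against 82.7 to 247 CPM. Plasmacytoid markers, mostly Bst2, ranged over 442 to 572 CPM in BrM, against 201 to 371 CPM in MFP, and epithelial markers over 11.1 to 93.0 CPM, against 0 to 36.8 CPM. Scrublet doublet scores in the top 7% of a library were held by 0, 9 and 9 cDC1 of BrM 1, 2 and 3, against 0, 0 and 4 of MFP 1, 2 and 3.

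The first comparison asked whether cDC1 made up another share of the leukocytes in brain than in fat pad tumours. They made up 0.202% (95% exact binomial interval 0.115 to 0.327), 1.83% (1.55 to 2.16) and 1.16% (0.940 to 1.42) of cells in BrM 1, 2 and 3. In MFP 1, 2 and 3 they made up 0.0752% (0.0276 to 0.164), 0.0354% (0.00729 to 0.103) and 0.528% (0.368 to 0.734). MFP 3 lay above BrM 1, so the sites overlapped, and the mean log2 share was 2.75 higher in BrM (exact two-sided permutation p = 0.2, where 3 against 3 allows no p below 0.1). These intervals cover counting error only.

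Among gated conventional dendritic cells, cDC1 outnumbered cDC2 in BrM 2 and BrM 3 and in no other library. They made up 40.0% (24.9 to 56.7), 75.0% (68.2 to 81.0) and 76.0% (67.5 to 83.2) of gated cells in BrM 1, 2 and 3. In MFP 1, 2 and 3 the share was 35.3% (14.2 to 61.7), 30.0% (6.67 to 65.2) and 44.3% (33.1 to 55.9). Over the 4 libraries with 20 or more gated cells the BrM mean was 19.4 percentage points higher than the lone MFP value (exact permutation p = 1). With all 6 libraries the means were 63.7% ± 20.5 in BrM and 36.5% ± 7.23 in MFP (SD, n = 3 each, exact permutation p = 0.2), and BrM 1 lay within the MFP range.

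**Figure D1:**
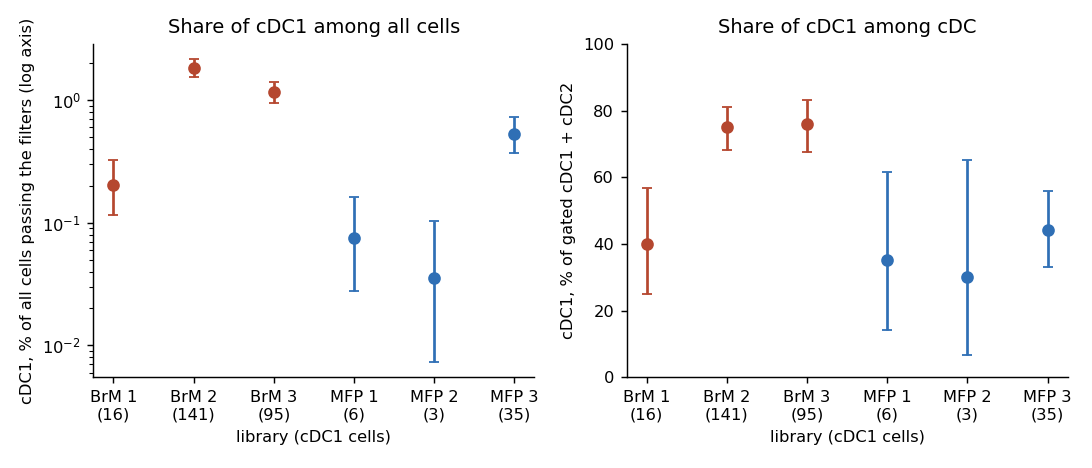
Share of cDC1 among all cells passing the filters (left, percent, log axis) and among gated cDC1 and cDC2 (right, percent) in each library, with 95% exact binomial intervals and the number of cDC1 in brackets. BrM 2 and BrM 3 have the highest shares in both panels, at 1.83% and 1.16% of all cells and 75.0% and 76.0% of gated dendritic cells.

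Against cDC2 of the same libraries, cDC1 carried the programme of their branch. Genes that the gate did not use went with the cell type label: of 26 identity genes, 23 were tested, 22 were higher in cDC1 and 1 was lower, with a median log2 fold change of 2.77, against 0.01 over all 6074 genes tested. In that edgeR quasi-likelihood test with library as a block, 502 genes were higher in cDC1 (8.26%) and 744 lower (12.2%), 20.5% in all, at a Benjamini-Hochberg adjusted p under 0.05. The 2 types were separated by the genes of their gates, which were left out of the test, so differences in genes that go with the gate genes follow from that choice.

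The lineage factors Irf8, Id2 and Batf3 were among the higher genes. Irf8, the factor that fixes cDC1 fate (chromosome 8, 120736358 to 120756694, GRCm38), had 1023, 992 and 1120 CPM in cDC1 of BrM 2, BrM 3 and MFP 3, against 105, 247 and 69.5 CPM in cDC2. Every cDC1 value lay above every cDC2 value, and the log2 fold change was 3.06 ± 0.29 (SE; edgeR adjusted p = 0.00013). Id2, a repressor of E-protein factors that cDC1 need, averaged 658 ± 95.1 CPM in cDC1 (SD, n = 3) and rose by 2.77 ± 0.17 on the log2 scale (edgeR adjusted p = 9.5e-06). Batf3, the partner of Irf8, was at 110, 121 and 146 CPM in cDC1, against 33.5, 33.5 and 49.9 CPM in cDC2 (1.62 ± 0.19). Nfil3, which acts earlier in cDC1 development, was the exception, at 43.4, 56.4 and 76.3 CPM in cDC1 and 112, 87.8 and 92.2 CPM in cDC2 (-0.81 ± 0.23, edgeR adjusted p = 0.036). Irf8 and Id2 were not particular to cDC1. Mature dendritic cells, gated by 2 or more UMIs of Fscn1 and 1 or more of Ccr7, had 1043, 1002 and 1128 CPM of Irf8 in the same libraries. Their Id2 stood at 2080, 1883 and 1145 CPM.

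Identity genes with roles in uptake and cross-presentation were higher too, although the separate list of uptake genes went mostly the other way, with 10 of 19 tested lower and 2 higher. Wdfy4, which is needed for cross-presentation of cell-bound antigen, had 454, 442 and 571 CPM in cDC1, against 112, 96.2 and 119 CPM in cDC2. Rab7b, an endosomal GTPase, had 243, 207 and 229 CPM in cDC1, against 22.3, 54.4 and 6.05 CPM in cDC2. Ppt1, a lysosomal thioesterase, had 995, 880 and 659 CPM in cDC1, against 89.3, 105 and 74.1 CPM in cDC2, with the smallest standard error of the 12 leading genes (log2 fold change 3.21 ± 0.14, edgeR adjusted p = 1.4e-06). Tlr3, the receptor for double-stranded RNA, had 62.9, 45.6 and 86.8 CPM in cDC1, and in cDC2 it stood at 6.70 and 6.05 CPM in BrM 2 and MFP 3 and was not detected in BrM 3. Adhesion molecules of the branch followed the same order. Cadm1 had 133, 101 and 97.3 CPM in cDC1, against 13.4, 0 and 25.7 CPM in cDC2, and Itgae, which encodes CD103, had 250, 205 and 159 CPM, against 60.3, 41.8 and 22.7 CPM. In MFP 2, with 3 cDC1, Itgae was not detected in cDC1 and stood at 14.4 CPM in cDC2. Cd207, a lectin of some tissue cDC1, was at 6.20, 6.18 and 1.31 CPM in cDC1, against 0, 0 and 1.51 CPM in cDC2, and was too low to test. The other leading genes with a higher level in cDC1 included the lipid receptor Ffar4, the nuclease Dnase1l3, the purinergic receptor P2ry14 and Tbc1d8, with log2 fold changes of 3.93, 2.85, 2.71 and 2.69. Serpinb6b, a protease inhibitor, had 147, 153 and 128 CPM in cDC1, and in cDC2 it was detected in BrM 3 alone of these 3 libraries, at 12.5 CPM. It was not particular to cDC1, with 146, 117 and 168 CPM in gated T cells and 1265, 1051 and 723 CPM in mature dendritic cells.

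Of 22 cDC2 identity genes, 18 were tested, and 16 were lower in cDC1, with a median log2 fold change of -2.90. Clec10a (chromosome 11, 70156197 to 70170834) had 2.38, 3.86 and 18.4 CPM in cDC1, against 219, 389 and 853 CPM in cDC2, the largest fall (-6.09 ± 0.22, edgeR adjusted p = 6.6e-07). Sirpa, the receptor for CD47, had 11.0, 5.41 and 27.6 CPM in cDC1, against 84.9, 105 and 160 CPM in cDC2, and Itgam, which encodes CD11b, had 1.91, 7.72 and 35.5 CPM, against 127, 79.5 and 157 CPM. In cDC1 the MFP 3 value of all 3 genes was the highest of the 3 libraries. Other leading genes lower in cDC1 were Cd209d, Ifitm1, Ifitm6, Ccl9, Cd7, Clec4b1, S100a4, Emilin2, Dab2 and Tmem176b, by 3.21 to 6.03 on the log2 scale. Clec12a, a lectin that binds dead cells, went the other way, at 155, 141 and 143 CPM in cDC1, against 71.5, 100 and 55.9 CPM in cDC2 (0.98 ± 0.20). Of 11 genes shared by both branches, 10 were tested, Bcl11a and Kmo were lower in cDC1 and 8 did not pass the test. Zbtb46, the factor common to conventional dendritic cells, was at 15.7, 22.4 and 28.9 CPM in cDC1 and 20.1, 8.36 and 31.7 CPM in cDC2.

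**Figure D2:**
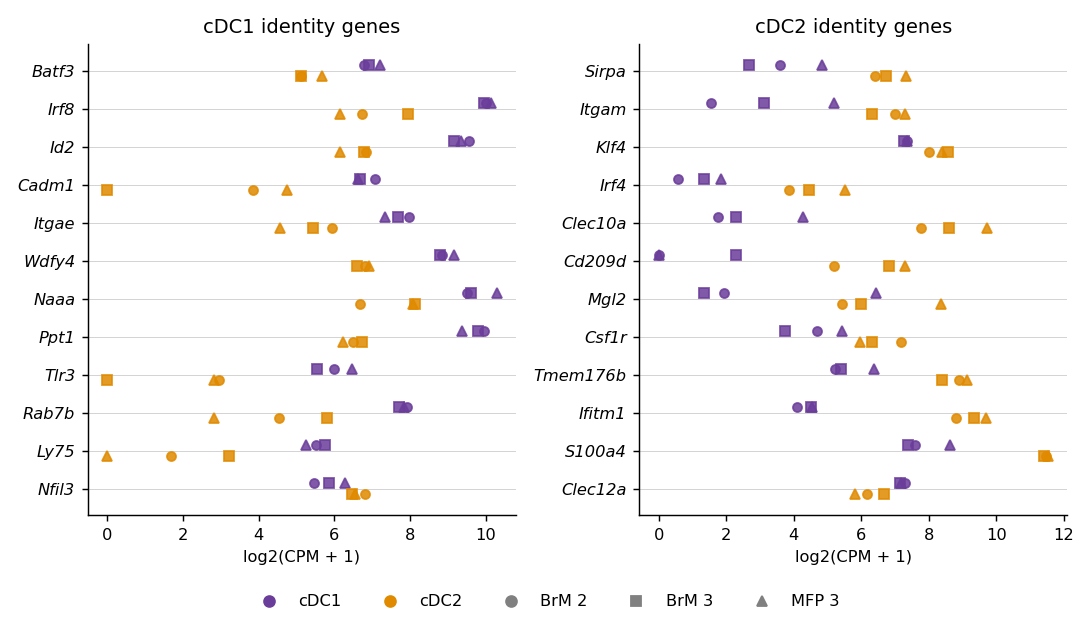
Level of 12 of the 26 cDC1 identity genes (left) and 12 of the 22 cDC2 identity genes (right), picked as examples, in cDC1 and cDC2 of the 3 libraries with 20 or more cells of both types, as log2(CPM + 1). Within each library the cDC1 point lies above the cDC2 point for the 12 genes drawn on the left except Nfil3, and below it for the 12 drawn on the right except Clec12a.

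Part of the MHC class I list was higher in cDC1. Of 18 genes, 7 were higher and none lower (8.26% of all genes were higher), with a median of 0.06. Psmb9, an immunoproteasome subunit, had 942, 1047 and 845 CPM in cDC1, against 400, 418 and 307 CPM in cDC2 (log2 fold change 1.30 ± 0.10, edgeR adjusted p = 4.4e-05). Psmb8, Psme1, Psme2, Tap2 and the chaperone Pdia3 rose by 0.66 to 0.97, while the subunit Psmb10 and the loading genes Tap1, Tapbp, Calr and Canx did not pass (-0.20 to 0.35). H2-Q7, a non-classical heavy chain with near-identical neighbours whose reads may be shared, rose by 1.07. H2-K1 was at 2409, 2452 and 1540 CPM in cDC1, against 2289, 2062 and 2030 CPM in cDC2 (adjusted p = 0.76 in the same edgeR test). Among 12 MHC class II genes, H2-Ob, which restrains peptide exchange, was higher and 11 did not pass the test. H2-Ab1 was at 11081, 10506 and 10414 CPM in cDC1, against 10435, 9250 and 11636 CPM in cDC2.

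Lysosomal proteases and phagocyte genes were lower in cDC1. Of 22 uptake genes, 19 were tested, 10 were lower and 2 higher, with a median of -1.04. Ctss, a protease that trims the invariant chain, had 794, 910 and 828 CPM in cDC1, against 2209, 1443 and 1536 CPM in cDC2. Cybb, the catalytic subunit of the phagocyte oxidase, had 41.5, 64.9 and 122 CPM in cDC1, against 433, 284 and 360 CPM in cDC2 (-2.40 ± 0.29). Havcr2, which encodes TIM-3, a receptor that restrains cDC1, had 172, 139 and 97.3 CPM in cDC1, against 103, 66.9 and 54.4 CPM in cDC2 (0.82 ± 0.17). The oxidase regulator Ncf4 was the other gene of this list that was higher.

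Il12b, the shared subunit of interleukins 12 and 23 (chromosome 11, 44400063 to 44414033), had 196, 121 and 118 CPM in cDC1 of BrM 2, BrM 3 and MFP 3. In cDC2 it had 6.70 CPM in BrM 2 and was not detected in BrM 3 and MFP 3 (edgeR adjusted p = 4.2e-05; no fold is given against so few molecules). It was carried by a minority of cDC1, with a UMI in 30 of 141, 16 of 95 and 4 of 35 cells, and 1 cell of BrM 2 held 135 of its 410 UMIs. In cDC1 of BrM 1 and MFP 1 it was not detected. Cells outside the gate with 2 or more UMIs of Fscn1 and 1 or more of Ccr7, markers of mature dendritic cells, had 1656, 1213 and 522 CPM of Il12b in the same libraries. Among 11 chemokines tested, Cxcl9, which draws CXCR3-positive T cells, was higher in cDC1, at 1131, 1535 and 1040 CPM, against 228, 774 and 81.6 CPM in cDC2 (2.20 ± 0.37, edgeR adjusted p = 0.0028). Cxcl10, which binds the same receptor, was at 597, 496 and 266 CPM in cDC1 and 228, 1857 and 573 CPM in cDC2, and the types overlapped. Ccl6, Ccl9 and Cxcl2 were lower. Of 14 maturation genes tested, Zmynd15 and Laptm4b were higher in cDC1, and Marcksl1, Tmem123, Samsn1 and Fabp5 were lower.

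Receptors for cytokines and chemokines were lower in cDC1 or did not pass. Of 16 cytokine receptors 8 were lower and none higher, among them Ifngr1 and Il4ra (-0.54 ± 0.13 and -1.21 ± 0.18). Of 9 chemokine and trafficking receptors tested 6 were lower, with Ccr2, which guides cells from blood to inflamed tissue, at 113, 111 and 151 CPM in cDC1, against 306, 489 and 476 CPM in cDC2. Of 11 costimulation genes tested, Cd40, Icosl, Tnfsf9, Pvr and Cd48 were lower and none was higher. Cd86 was at 364, 365 and 241 CPM in cDC1, against 344, 335 and 198 CPM in cDC2 (adjusted p = 0.52 in the same edgeR test). Of 9 pattern receptor genes tested, 5 were lower, while Tlr12, a receptor for a parasite protein, was higher, at 27.2, 23.2 and 19.7 CPM, against 4.47, 0 and 3.02 CPM in cDC2.

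Cell cycle genes formed the next largest group higher in cDC1 after the identity genes. Of 26 proliferation genes, 25 were tested, 20 were higher and none lower, with a median log2 fold change of 1.45. Cdk1, the mitotic kinase, had 74.9, 102 and 82.8 CPM in cDC1, against 8.93, 4.18 and 15.1 CPM in cDC2 (2.91 ± 0.33, edgeR adjusted p = 0.0003). Ube2c, an enzyme that acts in exit from mitosis, had 134, 143 and 112 CPM in cDC1, against 6.70, 8.36 and 16.6 CPM in cDC2. In MFP 1, with 6 cDC1 and 11 cDC2, Ube2c went the other way, at 0 CPM in cDC1 and 314 CPM in cDC2. Hmgb2, a chromatin protein, had 884, 1044 and 830 CPM in cDC1, against 205, 351 and 363 CPM in cDC2. With each cell thinned to 2000 UMIs, 51.8% (43.2 to 60.3), 55.8% (45.2 to 66.0) and 45.7% (28.8 to 63.4) of cDC1 of BrM 2, BrM 3 and MFP 3 had at least 2 UMIs of the list, against 27.7%, 40.0% and 29.5% of cDC2. Without thinning the shares were 99.3%, 96.8% and 100% of cDC1, against 87.2%, 90.0% and 93.2% of cDC2. With cells thinned to 5000 UMIs, 39.7%, 53.7% and 37.1% of cDC1 had 5 or more, against 10.6%, 24.1% and 23.3% of cDC2.

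Metabolic and stress genes split. Of 9 cholesterol genes tested, 2 were lower in cDC1, among them the exporter Abcg1, and 7 did not pass the test. Of 16 hypoxia and glycolysis genes tested, Pgk1, Pgam1, Ldha, Mif and Tpi1 were higher in cDC1, and the glucose transporter Slc2a1, Eno1 and Vegfa were lower. Of 22 dissociation stress genes 9 were lower and none higher, with Jun at 125, 156 and 142 CPM in cDC1, against 337, 401 and 461 CPM in cDC2. Among 21 interferon response genes tested, 8 were lower in cDC1 and none higher, with a median of -0.54. Of 13 interferon-gamma genes tested, 6 were lower and Serpina3g was higher, and Irf1 was at 80.1, 129 and 68.4 CPM in cDC1, against 194, 343 and 225 CPM in cDC2.

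**Figure D3:**
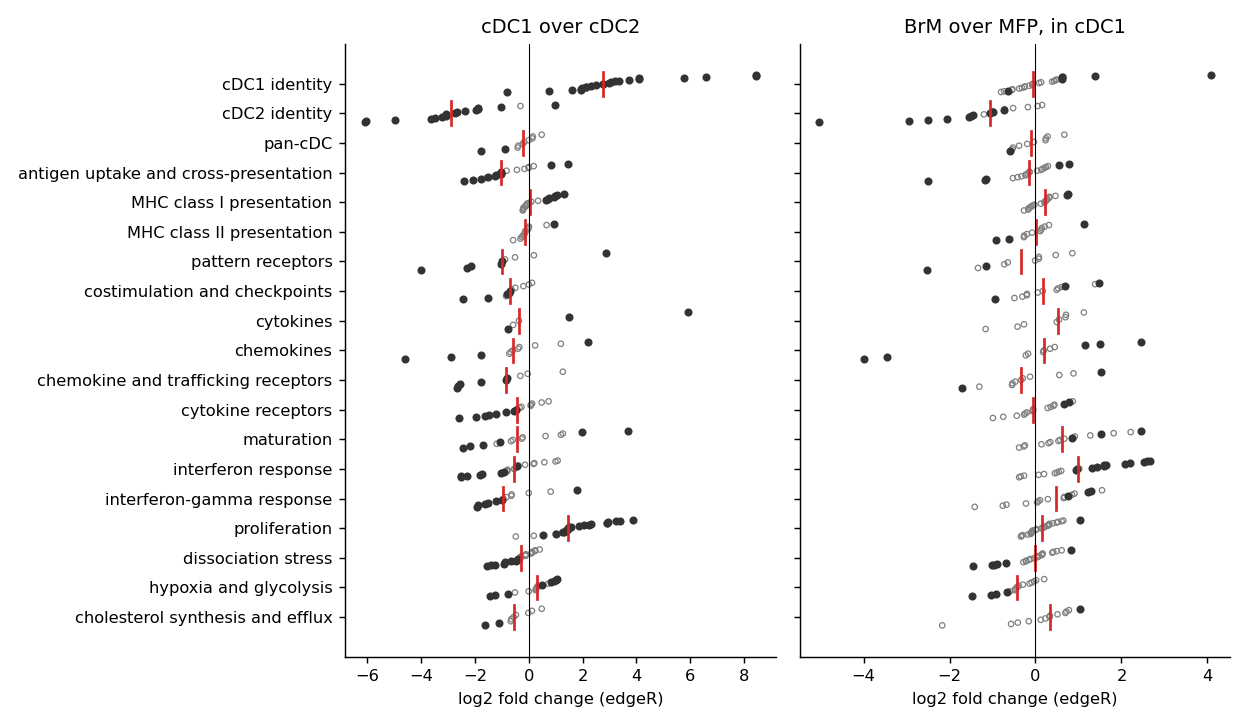
Log2 fold change of every tested list member for cDC1 over cDC2 (left) and for BrM over MFP within cDC1 (right). Filled points have an edgeR adjusted p under 0.05 and red bars are list medians. The proliferation list lies to the right in the left panel (median 1.45) and the interferon response list to the right in the right panel (median 1.00).

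The last comparison set cDC1 of BrM 2 and BrM 3 against cDC1 of MFP 3. With 1 MFP library, edgeR assumed that this library varies like the BrM libraries, and 1 residual degree of freedom was left. Differences between sites and peculiarities of MFP 3 thus cannot be told apart by this test. The spread was set almost wholly from all genes together, so a small p does not measure the spread of that gene. None of it is spread within MFP. Of 8239 genes, 209 were higher in BrM (2.54%) and 222 lower (2.69%), 5.23% in all. Scaling by total counts in place of TMM moved the split to 149 higher and 315 lower, with a median shift of -0.09. With BrM 1, which has 16 cells, added, 13 genes were called. The cDC1 identity list did not move as a group: of 25 tested, Itgae, Ppt1, Snx22 and Clnk were higher in BrM and Naaa lower, with a median of -0.06. Itgae had 70.6 CPM in BrM 1, below the 159 CPM of MFP 3, and Ppt1 had 713 CPM in BrM 1, below the 923 and 827 CPM of MFP 1 and MFP 2. Neither passed without cells of high doublet score (edgeR adjusted p = 0.14 for Itgae and 0.066 for Ppt1). Naaa, a lysosomal lipid hydrolase, had 843, 721 and 773 CPM in BrM 1, 2 and 3, against 1142, 1157 and 1245 CPM in MFP 1, 2 and 3, without overlap.

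Interferon response genes were the list with most members higher in BrM cDC1. Of 25 genes, 22 were tested, 12 were higher and none lower, where 2.54% of all genes were higher, and the median log2 fold change was 1.00, against 0.01 over all genes. Irf7, the factor that amplifies type I interferon (chromosome 7, 141262706 to 141266481), had 357, 452 and 428 CPM in BrM 1, 2 and 3, against 174, 33.1 and 155 CPM in MFP 1, 2 and 3. Every BrM library lay above every MFP library, and the log2 fold change over the 3 tested libraries was 1.60 ± 0.19 (edgeR adjusted p = 3.9e-14). Isg15, a ubiquitin-like modifier, had 308, 439 and 369 CPM in BrM, against 238, 66.1 and 143 CPM in MFP (1.60 ± 0.19, edgeR adjusted p = 9.3e-14). Isg20, an exonuclease that degrades viral RNA (chromosome 7, 78913424 to 78920396), had 59.5, 84.9 and 86.5 CPM in BrM, against 45.7, 0 and 14.5 CPM in MFP. It showed the largest rise among genes named by size (2.66 ± 0.36, edgeR adjusted p = 1.4e-10) and had a UMI in 50 of 141 and 43 of 95 cells of BrM 2 and BrM 3, against 6 of 35 of MFP 3.

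Other members had the same order of sites. Oasl1, a regulator of Irf7 translation, had 52.0, 126 and 81.1 CPM in BrM, against 9.14, 0 and 19.7 CPM in MFP (2.52 ± 0.32). Usp18, a protease that removes Isg15 and restrains the interferon receptor, had 37.2, 87.3 and 68.0 CPM, against 36.5, 33.1 and 19.7 CPM. For both genes the 2 sites did not overlap in all 6 libraries. In BrM 1 the top cell for each gene held 12 of the 14 UMIs of Oasl1 and 5 of the 10 of Usp18. There it held 12 of 16 UMIs of Isg20, 12 of 13 of Rsad2 and 48 of 83 of Isg15. For Irf7 it held 42 of 96 and for Ifi209 8 of 41. The order of sites without such cells was not tested. The antiviral gene Ifit1 had 0, 46.7 and 30.1 CPM in BrM, against 0, 0 and 9.20 CPM in MFP, so BrM 1 did not share its rise. Without its 4 cells of high doublet score, MFP 3 kept 0 of 7 UMIs of Ifit1 and 0 of 4 of Ifit3. It kept 2 of 14 of Ifit2 and 5 of 15 of Oasl1, but 61 of 109 of Isg15 and 82 of 118 of Irf7. Changes of the list without those cells thus rest in part on few UMIs of that library. Over all 6 libraries, 14 genes of the list passed the low-count filter (filterByExpr). Of these, 11 lay higher in every BrM library than in every MFP library and none lower. Among all genes passing that filter, 6.09% lay higher and 7.56% lower. A gene can pass through the BrM libraries alone, and genes low in most libraries are left out, so the count is a description and no test. It includes Oasl1, Isg20 and Rsad2, whose BrM 1 levels rest mostly on 1 cell. No edgeR call was made for the list with all 6 libraries (0 of 14, median 1.15, 10 at an unadjusted p under 0.05), and 1 of 22 was called with BrM 1 added (median 0.94). Without cells of high doublet score 15 of 22 were called (median 1.95), and DESeq2 called 4.

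**Figure D4:**
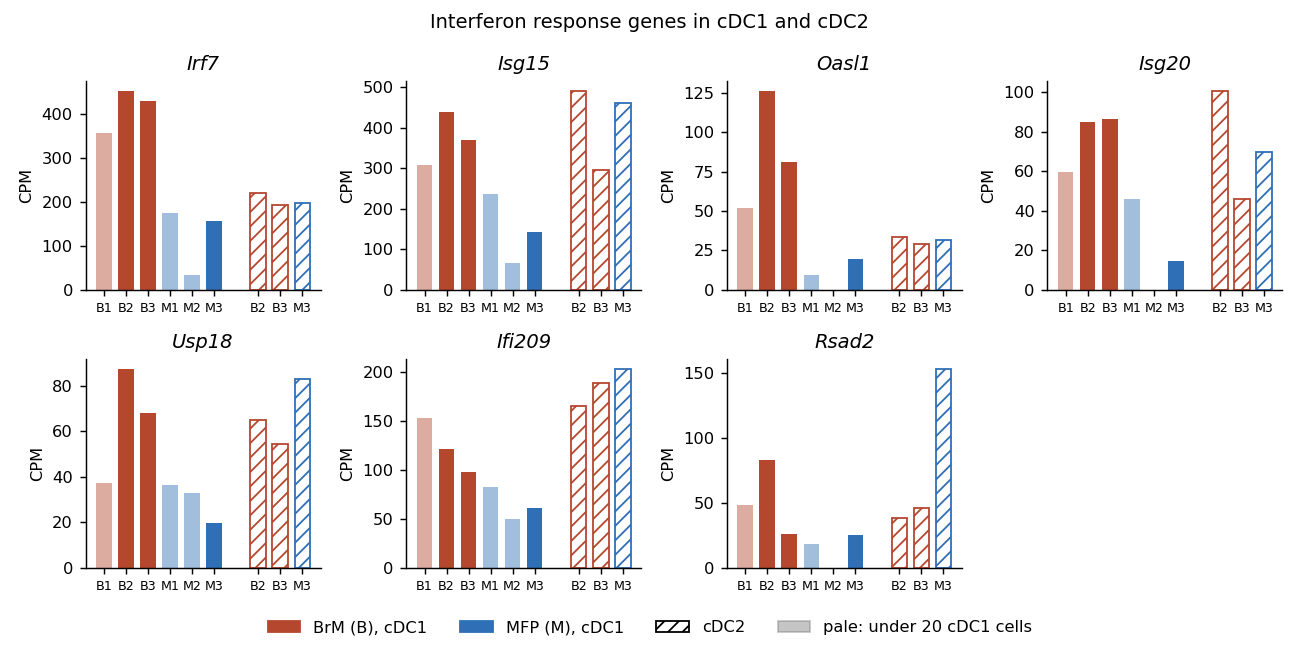
Level of 7 interferon response genes in CPM. All 7 are from those that lay higher in every BrM library than in every MFP library, so that order follows from the choice. Called members without it, such as Ifit1, are not drawn. Solid bars are cDC1 of BrM 1 to 3 (B1 to B3) and MFP 1 to 3 (M1 to M3), pale where a library has under 20 cDC1, and hatched bars are cDC2 of BrM 2, BrM 3 and MFP 3. The cDC1 bars of the 3 BrM libraries exceed those of the 3 MFP libraries, and the cDC2 bars do not share that order for any of the 7. The cDC1 bars of BrM 1 rest on 16 cells, and for Isg20, Oasl1 and Rsad2 mostly on 1 cell.

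Counted per cell, the interferon list was spread over many cDC1. With each cell thinned to 5000 UMIs, the median cDC1 held 7, 9 and 10 UMIs of the list in BrM 1, 2 and 3, against 5.5, 6 and 5 in MFP 1, 2 and 3. In cDC2 the medians were 14, 9 and 12 in BrM, against 14.5, 9 and 7 in MFP, and they overlapped. The macrophage markers summed to 1543 and 1403 CPM in BrM 2 and BrM 3, against 1554 CPM in MFP 3, and Ly6c2, a monocyte marker, was higher in BrM, at 152, 62.0 and 134 CPM, against 18.3, 33.1 and 22.4 CPM in MFP. Of 5 monocyte markers tested, Ly6c2, Fcgr1 and Plac8 were higher in BrM and Lyz2 lower. Fcgr1, an activating Fc receptor, had 33.4, 43.9 and 35.5 CPM in BrM, against 0, 0 and 13.1 CPM in MFP (1.71), and stayed higher without cells of high doublet score (2.54). Plac8 was at 1.18 over the 3 libraries and was among the 13 genes called with BrM 1 added (1.22, edgeR adjusted p = 0.048). The part of cells with monocyte markers in the interferon result was not tested.

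Promoter sequence was available in the RefSeq tables (GRCm38.p6) for 10 of the 12 genes called higher. GAAANNGAAA, the core of the interferon-stimulated response element, was searched on both strands in the 250 bases before the start, where overlapping matches were counted separately. It was present in 4 of these 10 genes, in 5 of the 9 other list members with a promoter, and in 936 of 27025 genes (3.46%). The 4 are shown because they are the called genes that hold the motif, in the direction of transcription with the matches in capitals. They are Isg15 (chr4:156200819-156201068, minus strand, 3 matches that overlap), Ifit1 (chr19:34640639-34640888, plus strand, 2 matches), Ifit3 (chr19:34583279-34583528, plus strand, 2 matches) and Rsad2 (chr12:26456453-26456702, minus strand, 1 match).
Isg15: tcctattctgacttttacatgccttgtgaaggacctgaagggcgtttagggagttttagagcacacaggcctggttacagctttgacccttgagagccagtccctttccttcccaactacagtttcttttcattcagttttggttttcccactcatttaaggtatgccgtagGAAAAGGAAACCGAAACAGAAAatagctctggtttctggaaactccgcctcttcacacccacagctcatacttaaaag
Ifit1: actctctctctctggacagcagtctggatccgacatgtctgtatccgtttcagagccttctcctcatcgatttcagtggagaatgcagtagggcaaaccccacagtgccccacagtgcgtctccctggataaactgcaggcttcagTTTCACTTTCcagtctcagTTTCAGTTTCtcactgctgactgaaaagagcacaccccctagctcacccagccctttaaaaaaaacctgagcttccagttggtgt
Ifit3: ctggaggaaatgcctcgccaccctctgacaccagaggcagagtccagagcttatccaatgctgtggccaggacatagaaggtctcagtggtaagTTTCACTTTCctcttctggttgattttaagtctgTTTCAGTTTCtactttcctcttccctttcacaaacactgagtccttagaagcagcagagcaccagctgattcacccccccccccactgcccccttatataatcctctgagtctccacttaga
Rsad2: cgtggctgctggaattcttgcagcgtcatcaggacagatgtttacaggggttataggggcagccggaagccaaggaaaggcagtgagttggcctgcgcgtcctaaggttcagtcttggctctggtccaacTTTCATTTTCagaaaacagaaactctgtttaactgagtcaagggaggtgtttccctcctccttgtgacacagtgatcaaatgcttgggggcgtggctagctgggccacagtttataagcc
The cDC1 levels of these 4 genes differed in size. Isg15 had a UMI in 100 of 141 and 74 of 95 cells of BrM 2 and BrM 3, against 22 of 35 of MFP 3, while Ifit1 had one in 11 and 9 cells, against 1. Rsad2, which makes an antiviral nucleotide, had 48.3, 83.0 and 26.3 CPM in BrM, against 18.3, 0 and 25.0 CPM in MFP. Irf7, Isg20 and Oasl1 rose without a match in the window.

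Single genes of migration and T cell contact differed in both directions, within gates that exclude Fscn1. Of 11 chemokine and trafficking receptors tested, Ccr7 was higher in BrM and Cxcr3 lower, and of 13 costimulation genes, Cd86 and Cd274 were higher and Vsir lower. Ccr7, the receptor that takes dendritic cells to lymph nodes, had 142 and 61.8 CPM in BrM 2 and BrM 3, against 39.4 CPM in MFP 3, and was not detected in the other 3 libraries (1.53 ± 0.27, edgeR adjusted p = 4.3e-06). In MFP 3, 1 cell held 21 of the 30 UMIs of Ccr7, and without cells of high doublet score 1 UMI was left there and the log2 fold change was 6.03. Ccl22, which draws regulatory T cells, had 7.43, 52.5 and 25.5 CPM in BrM, against 0, 0 and 7.89 CPM in MFP, where 1 cell held all 6 UMIs of MFP 3. Of 16 maturation genes tested, these 2 and Marcksl1 were higher and none lower. Cd86, a ligand of CD28, had 223, 364 and 365 CPM in BrM, against 238, 231 and 241 CPM in MFP (0.70 ± 0.18, edgeR adjusted p = 0.004), and BrM 1 lay below the MFP libraries. Cd274, which encodes PD-L1, had 11.1, 44.3 and 68.8 CPM in BrM, against 18.3, 33.1 and 21.0 CPM in MFP (1.48 ± 0.36), and BrM 1 was the lowest library. Vsir, an inhibitory ligand of T cells, had 37.2, 30.0 and 28.6 CPM in BrM, against 45.7, 16.5 and 60.5 CPM in MFP (-0.94), and did not pass without cells of high doublet score (-0.91, edgeR adjusted p = 0.11). Csf2rb, the shared receptor chain for GM-CSF, had 305, 443 and 427 CPM in BrM, against 174, 149 and 270 CPM in MFP without overlap (0.79 ± 0.18), and Ifnar2, a chain of the type I interferon receptor, had 119, 158 and 159 CPM, against 73.1, 99.2 and 108 CPM (0.66 ± 0.21; edgeR adjusted p = 0.055 without cells of high doublet score).

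Antigen presentation and T cell chemokines moved in part. Of 18 MHC class I genes, H2-K1 and H2-Q7 were higher and none lower, with H2-K1 at 1026, 2409 and 2452 CPM in BrM, against 1252, 1405 and 1540 CPM in MFP. Of 12 MHC class II genes, H2-Oa was higher and the class II transactivator Ciita and the ubiquitin ligase March1 were lower. Cxcl10 had 100, 597 and 496 CPM in BrM, against 9.14, 0 and 266 CPM in MFP (1.14 ± 0.18, edgeR adjusted p = 3e-08), and 1 cell held 155 of the 202 UMIs of MFP 3. Of 16 interferon-gamma genes tested, Iigp1, Ifi47 and Icam1 were higher and none lower. Iigp1 was highest in MFP 1, at 256 CPM from 6 cells, against 26.0 to 149 CPM in the BrM libraries. Of 26 proliferation genes, Cenpe was higher and 25 did not pass the test, and none of 8 cytokine genes tested passed. Fdps, an enzyme of isoprenoid synthesis, was the 1 of 13 cholesterol genes called higher (1.03 ± 0.19). Among genes outside these lists, the mitochondrial pyrimidine carrier Slc25a33, Ly6c2, Ctla2b, the GTPase Rrad and the tight junction gene Cldn1 were the other 5 leading rises, by 1.70 to 2.39 on the log2 scale. Rrad, at 204, 134 and 106 CPM in BrM, against 27.4, 33.1 and 38.1 CPM in MFP, and Ly6c2 did not overlap in all 6 libraries. BrM 1 lay within or below the MFP values for the other 3 genes: Slc25a33 had 7.43 CPM there, against 9.14, 16.5 and 14.5 CPM in MFP, Ctla2b 11.1 CPM, against 9.14, 33.1 and 18.4 CPM, and Cldn1 7.43 CPM, against 0, 0 and 25.0 CPM.

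Of 8 leading genes lower in BrM cDC1, several rested on few cells of MFP 3. Fn1, which encodes fibronectin, had 88 UMIs in MFP 3, 85 of them in 1 cell, and 3 were left without the 4 cells of high doublet score. Mmp12, a macrophage elastase, had 99 UMIs, 85 of them in 1 cell, and none were left. Mgl2, a cDC2 and macrophage lectin, had 65 UMIs, 45 of them in 1 cell, and 5 were left. These 3 genes were too low to test without those cells. Of 17 cDC2 identity genes tested, 10 were lower in BrM and none higher, with a median of -1.05, and Itgam, Sirpa and Tmem176b did not pass without those cells, where their log2 fold changes were -1.28, -0.86 and 0.77. Clec10a did not pass there either (-2.31, edgeR adjusted p = 0.055), and Clec4a2 was too low to test. Over all 6 libraries, 10 genes of that list passed the low-count filter. None of them lay lower in every BrM library than in every MFP library, where 7.56% of all genes passing it did. S100a4, a calcium-binding protein of motile cells, stayed lower (-0.97, edgeR adjusted p = 8.4e-06), yet over all libraries it had 290, 191 and 168 CPM in BrM, against 18.3, 33.1 and 400 CPM in MFP.

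**Figure D5:**
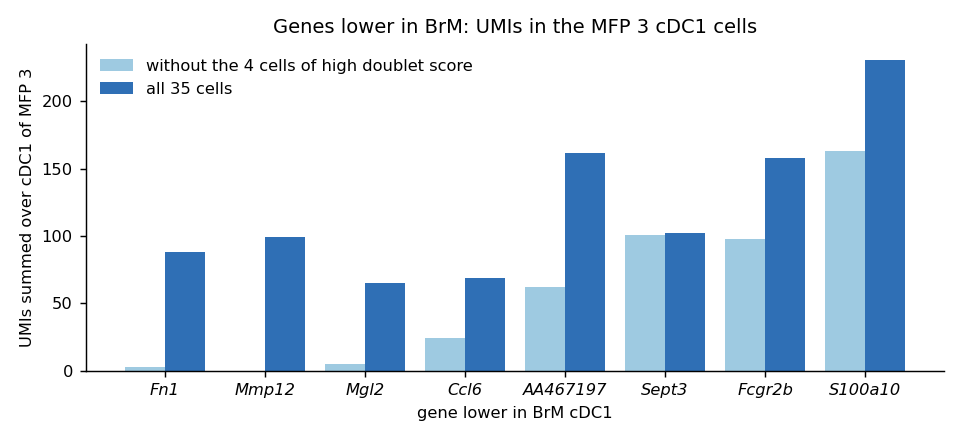
UMIs of the 8 leading genes lower in BrM, summed over the cDC1 of MFP 3 without the 4 cells of high doublet score (light) and over all 35 cells (dark). Fn1, Mmp12 and Mgl2 fall to 3, 0 and 5 UMIs, whereas Sept3 keeps 101 of 102.

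Sept3, a septin of the filament-forming GTPases (chromosome 15, 82274893 to 82294574), had a lower summed level in every BrM library than in every MFP library. It had 33.4, 17.6 and 19.3 CPM in BrM 1, 2 and 3, against 100, 49.6 and 134 CPM in MFP 1, 2 and 3, so the sites did not overlap (-2.76 ± 0.27, edgeR adjusted p = 3.8e-21). It had a UMI in 29 of 141 and 21 of 95 cDC1 of BrM 2 and BrM 3, against 23 of 35 of MFP 3. The values of BrM 1, MFP 1 and MFP 2 rest on 9, 11 and 3 UMIs, in 5 of 16, 2 of 6 and 1 of 3 cells. The share of cells with a UMI was thus alike there, at 31.3%, 33.3% and 33.3%. Sept3 was the 1 gene called when all 6 libraries were tested (-2.46 ± 0.32, edgeR adjusted p = 0.017). In cDC2 it had 2.23 and 8.36 CPM in BrM 2 and BrM 3, against 62.0 CPM in MFP 3. Fcgr2b, the inhibitory Fc receptor, had 14.9, 35.3 and 33.2 CPM in BrM, against 27.4, 66.1 and 208 CPM in MFP, and S100a10, which binds annexin A2, had 245, 49.6 and 65.7 CPM, against 155, 331 and 304 CPM. Both stayed lower without cells of high doublet score (-2.75 and -2.21). Cxcr3, a chemokine receptor, had 18.6, 16.2 and 9.27 CPM in BrM, against 54.8, 0 and 47.3 CPM in MFP (-1.71 ± 0.37).

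Glycolysis and stress genes were lower in part. Of 16 hypoxia and glycolysis genes tested, Gapdh, Eno1, Bnip3 and Tpi1 were lower and none higher, with Tpi1 at 130, 123 and 167 CPM in BrM, against 192, 198 and 313 CPM in MFP without overlap (-1.03 ± 0.17). Without cells of high doublet score none of the 4 passed, and Tpi1 was at -0.52. Of 22 stress genes, Fosb, Dusp1, Hspa1a, Hspa1b and Klf2 were lower and Nfkbia, the inhibitor of NF-kB, was higher. Klf2, a factor of quiescence, had 163, 120 and 111 CPM in BrM, against 247, 562 and 230 CPM in MFP. Hspa1a and Hspa1b are near-identical copies whose reads may be shared.

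Whether the site difference of cDC1 was also that of cDC2 was tested as an interaction over the same 3 libraries. Of 7366 genes, 35 had a larger cDC1 over cDC2 difference in BrM (0.475%) and 50 a smaller one (0.679%), 1.15% in all. In the interferon list 9 genes of 23 tested were among the 35, and no gene of the list was among the 50. None was called with 3 or more UMIs of Xcr1 and Clec9a, with DESeq2 or with 10 cells per library (0 of 23 each; 10, 9 and 3 higher at an unadjusted p under 0.05), nor with no cell minimum (0 of 20, 5 at an unadjusted p under 0.05), where the medians were 0.67 to 1.10. Isg15 had 439 and 369 CPM in cDC1 of BrM 2 and BrM 3, against 143 CPM in MFP 3, while cDC2 had 491 and 297 CPM, against 463 CPM. Rsad2 in cDC2 had 38.0 and 46.0 CPM in BrM 2 and BrM 3, against 153 CPM in MFP 3, so part of its interaction came from a higher MFP value in cDC2. The interaction did not pass the test for the other 14 genes of the list. Of 25 proliferation genes tested, Top2a, Rrm2, Stmn1 and Nusap1 had a larger difference in BrM, where cDC2 had 24.6 and 58.5 CPM of Stmn1, against 147 CPM in MFP 3.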

How the data were processed

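Counts of unique molecular identifiers per gene and cell barcode were used as deposited by the authors, who made them with Cell Ranger 4.0 on mm10, per the submitters' processing notes, from 10x 3' version 3 libraries, per the labels' protocols. The annotation release is not given in the sources used here. Cells were gated in raw counts, summed per library and type, and tested with edgeR 4.0.16 in R 4.3.3 (quasi-likelihood, TMM, filterByExpr, Benjamini-Hochberg at 0.05), leaving out the gate genes. Named genes were all list members, the 12 largest called changes each way between types (at 100 CPM or more, same direction in each of the 3 libraries tested) and the 8 each way between sites (at 50 CPM or more, sites not overlapping in those 3 libraries), and others are named as examples. Members and lists were chosen with earlier results of these data known. Doublets were scored with Scrublet in scanpy 1.11.5 and kept in the main fits. On simulated data at log2 changes of 1 and 2, the type test recovered 67% and 100% of changed genes, the site test 31% and 88%, and the interaction 4% and 51%. Clec7a, Cxcl11, Mx1 and Mx2 were not analysed here, Aldoa has 2 identifiers and was left out, and Clec4a4 had 0 UMIs. Values of some single list members are not reported here, and the list counts include them.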

Additional observations from a re-analysis of the deposited data

Results flagged for a closer look

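The difference between cDC1 and cDC2 was not the same at the 2 sites for 23 list members that are also called between sites in cDC1. Genes outside the lists were not searched here, and the interaction calls over all genes are given above with their share. Both tests use the same cDC1 counts of BrM 2, BrM 3 and MFP 3, so being called in both is not independent evidence. Each value is the log2 interaction (cDC1 over cDC2 in BrM, less the same in MFP; edgeR adjusted p under 0.05, BrM 2 and BrM 3 against MFP 3). Larger in BrM were the interferon genes Isg20 (2.44), Oasl1 (2.50), Usp18 (2.51), Ifit1 (3.16), Ifit2 (3.10), Ifit3 (3.94), Isg15 (1.78), Rsad2 (3.17) and Irf7 (1.48), the chemokine Ccl22 (3.67) and the NF-kB inhibitor Nfkbia (1.16). Smaller in BrM were the myeloid genes Ccl9 (-3.21), Ccl6 (-2.75), Itgam (-2.46), Mgl2 (-2.34), Fcgr2b (-1.37), Fcgr3 (-2.83), Tlr2 (-2.30), Il1b (-1.03), Lyz2 (-2.68), S100a4 (-1.03) and Ifitm2 (-1.28), and the chaperone Hspa1b (-2.52). With 3 or more UMIs of Xcr1 and Clec9a only Ccl6 and Lyz2 of the 23 were called, with DESeq2 only Lyz2, with 10 cells per library only Ccl6, and with no cell minimum none of 22 tested. The 11 genes larger in BrM thus lost their call in these 4 settings, at an unadjusted p under 0.05 for 11, 11 and 5 of 11 and 5 of 10 tested. Of the Lyz2 UMIs in MFP 3 cDC1, 226 of 672 were left without the 4 cells of high doublet score. No group had the 4 libraries that a search for single outlying libraries needs.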

How the results depend on the processing

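The type comparison called 1246 genes, 587 with DESeq2 and 533 to 1285 when 1 library was left out, and all 1157 of its genes that were also tested with 10 cells per library kept their sign there. The site comparison called 431 genes, 66 with DESeq2, 13 with 10 cells per library, 1 with no cell minimum, and 0 with no cell minimum and replicate block (264 at an unadjusted p under 0.05); of its 410 genes also tested without high doublet scores, 404 kept their sign. The interaction called 85 genes, 6 with 3 or more UMIs of Xcr1 and Clec9a, 157 with 1 or more of Cd209a, 3 with DESeq2, 4 with 10 cells and 0 with no minimum (209 at an unadjusted p under 0.05). Settings with no cell minimum were chosen after seeing the data.

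Left-out libraries gave log2 differences in the cDC1 share of cells of 1.92 to 3.87 and share differences among gated cells of 13.2 to 31.2 percentage points. With cells thinned to 2000 UMIs before gating, 3, 14 and 7 cDC1 were left in BrM 1, 2 and 3, against 0, 0 and 2 in MFP. Their log2 difference in the share of cells was 3.05 (exact permutation p = 0.1), with a constant added to each count because of the zeros. BrM 1 then had 0.0390%, against 0.0324% in MFP 3. Blocking on the replicate number gave p = 0.25 for both shares (exact permutation over pairs, differences 2.75 and 27.1). Same-numbered libraries correlated at 0.86, -0.84 and 0.87 over 10755 genes. These signs go with the split in macrophage and neutrophil markers given above, where only BrM 2 and MFP 2 lie on opposite sides. The values thus cannot tell whether the numbers pair libraries. The block could not be fitted for the 3 libraries of the site test, nor could leaving out a library there or in the interaction.

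For list members and leading genes, 157 values between types, 265 between sites and 279 in the interaction changed sign without a call in either fit. With a call in the main fit or under the alternative, the direction turned for the genes that follow. The cause was not tested. Without BrM 2, cDC1 over cDC2 was 1.03 for C1qa and 0.74 for Apoe, and without MFP 3 it was -0.86 and -1.25. Without high doublet scores, BrM over MFP was 0.77 for Tmem176b, 1.91 for Zmynd15, 7.22 for Rtp4 and 0.067 for Lyz2, and the interaction 0.64 for Mgl2 and 6.75 for Rtp4. Without cells carrying other lymphoid genes it was -1.93 for Gzma between sites and -0.39 for Nusap1 in the interaction. With no cell minimum it was 0.0048 for S100a4 between sites, and 0.45 for S100a4, -0.048 for H2-Eb1 and 0.12 for Lyz2 in the interaction. With the replicate block added it was 0.61 for S100a4, 0.24 for Cybb, 0.012 for Tlr2, -0.040 for Ccl5 and 0.22 for Lyz2. For list members, 241 values between types, 293 between sites and 205 in the interaction lost their call under an alternative. DESeq2 gave no adjusted p for 188 list values. Depth per library, 3 to 141 cDC1, limits every site comparison.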
